A study of Mus musculus with 18 samples.

Results

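The histone genes of mouse islets were followed here in RNA from which ribosomal RNA had been removed without selection for poly(A) tails. Members were all entries of the count table whose symbol begins with a histone prefix (Hist1 to Hist4, H1f, H2ac, H2af, H2ax, H2az, H2bc, H2bf, H2bu, H3c, H3f, H4c or H4f), which gave 87 of 54186 gene symbols. Of these, 66 were replication-dependent genes, 12 were replacement genes and 9 were pseudogene or antisense entries. RNA came from pancreatic islets of 18 FVB mice aged 6 weeks, with 1 library per mouse and 6 mice in each of 3 genotypes. WT mice carried no transgene. The hIAPP mice expressed human islet amyloid polypeptide (IAPP), a hormone that beta cells secrete with insulin, and the rIAPP mice expressed the rodent form of the peptide. Both transgenes were driven by the insulin II promoter and were meant for beta cells, while the RNA came from whole islets. The comparisons asked how histone RNA differed between hIAPP and WT, between rIAPP and WT, and between the transgenic genotypes. The first pair share the WT libraries, and the others each share a transgenic genotype.

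Histones are the proteins around which DNA is wound. The core histones H2A, H2B, H3 and H4 form the nucleosome, and H1, the linker histone, binds the DNA between nucleosomes. Replication-dependent histone genes lie in clusters as many copies, are made mainly in S phase, and yield mRNA that ends in a conserved stem-loop in place of a poly(A) tail. Replacement histones are encoded by scattered genes, most of them with poly(A) tails, and are made throughout the cell cycle and in cells that no longer divide, so they are of particular interest in a tissue such as islets, where few cells divide. Libraries made from total RNA retain both kinds of mRNA.

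The stem-loop is shown because it is the feature that separates the classes and lets replication-dependent mRNA escape poly(A) selection. A stem-loop of 16 bases, with a stem of 6 base pairs and a loop of 4 bases, was found in the GENCODE M21 transcripts (GRCm38) of 45 of the 65 replication-dependent genes that had one (69.2%), and in 45 of the 50 whose transcript model extends past the stop codon far enough to hold it. It was found in 1 of 11 replacement genes (H2ax) and in 222 of 21901 protein-coding genes (1.01%). The stem is in capitals and the loop in lower case below, 5′ to 3′, as DNA letters.
Commonest form, 25 genes of types H1, H2A, H2B and H3: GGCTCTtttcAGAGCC
Form of 7 genes, all H4 (H4c3, H4c4, H4c6, H4c8, H4c17, H4c18 and H4f16): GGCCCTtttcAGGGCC
Form of H4c11 and H4c2: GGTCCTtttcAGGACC
Form of H4c14 and H4c9: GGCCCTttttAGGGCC
Form of H2ax: GGCCCTtttaAGGGCC
No form was shared between an H4 gene and a gene of another type, and H4c11 shared its form with H4c2 alone. The transcript model of H4c12 ends at its stop codon, so no stem-loop could be read for it.

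The promoters of 3 H4 genes whose RNA was lower in rIAPP islets (H4c11, H4c12 and H4c6) are given because they carry the H4 results below. That of H4c4, the H4 gene with the highest counts uncorrected for length, is given beside them. They are the 250 bases before the gene start on GRCm38.p6, from RefSeq, 5′ to 3′ on the gene's strand. Capitals mark TATAAA (the TATA box), CCAAT (the CCAAT box, bound by NF-Y) or GGTCCG (the core of an element of H4 promoters that the factor Hinfp binds), on either strand. The H4c11 stretch ends inside a TATAAA that runs past the gene start, so it is not marked there. The TATAAA of H4c6 begins 250 bases before the gene start. Letters were marked wherever they occurred, without regard to position.
H4c11 (chr13:21734784-21735033, plus strand): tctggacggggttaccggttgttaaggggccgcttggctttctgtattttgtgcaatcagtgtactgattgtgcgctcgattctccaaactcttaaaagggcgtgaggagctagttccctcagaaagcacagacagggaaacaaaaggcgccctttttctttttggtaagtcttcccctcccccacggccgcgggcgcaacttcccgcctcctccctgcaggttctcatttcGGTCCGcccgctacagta
H4c12 (chr13:21750554-21750803, minus strand): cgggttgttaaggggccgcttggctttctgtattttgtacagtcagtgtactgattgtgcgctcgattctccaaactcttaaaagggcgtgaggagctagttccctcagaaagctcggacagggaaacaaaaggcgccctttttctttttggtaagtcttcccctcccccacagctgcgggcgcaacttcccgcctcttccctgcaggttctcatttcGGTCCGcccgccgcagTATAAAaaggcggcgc
H4c6 (chr13:23551669-23551918, minus strand): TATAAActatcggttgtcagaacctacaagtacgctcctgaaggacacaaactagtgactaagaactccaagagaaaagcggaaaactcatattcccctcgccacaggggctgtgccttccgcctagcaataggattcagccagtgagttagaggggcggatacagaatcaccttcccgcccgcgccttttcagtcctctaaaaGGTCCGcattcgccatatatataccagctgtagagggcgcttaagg
H4c4 (chr13:23581318-23581567, plus strand): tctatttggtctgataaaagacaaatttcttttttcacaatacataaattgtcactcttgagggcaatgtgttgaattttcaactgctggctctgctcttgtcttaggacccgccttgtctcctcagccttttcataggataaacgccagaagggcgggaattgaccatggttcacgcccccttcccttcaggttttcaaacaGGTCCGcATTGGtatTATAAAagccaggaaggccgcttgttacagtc
GGTCCG was present in the RefSeq promoters (250 bases before to 50 after the gene start, either strand) of 11 of 12 H4 genes (91.7%), against 9.4% of 27025 promoters of all genes. It was looked for after the promoters had been read. Promoters of H4c11 and H4c12 were identical at 274 of 286 aligned bases (95.8%), and of the other H4 pairs only H4c17 and H4c18 came close, at 298 of 299 (99.7%). CCAAT was found in each of the 48 replication-dependent promoters of types H1, H2A, H2B and H3 and in 3 of 12 H4 promoters (25.0%), against 41.1% of all promoters. TATAAA was found in 58.3% of the replication-dependent promoters and 15.7% of all. The octamer ATTTGCAT, bound by Pou2f1, was confined to types H2A (35.3%) and H2B (46.7%) among the replication-dependent promoters, against 2.0% of all promoters. AAACACA, known from H1 promoters, was in 5 of 6 H1 promoters (83.3%) and 8.2% of all. Matches of these motifs may overlap, and each is a description of the letters, not of binding.

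Total counts per library were 109.6 to 166.2 M, highest in WT (144.3 to 166.2) and lower in hIAPP (109.6 to 141.5) and rIAPP (127.6 to 157.5). The labelled tissue was checked by its beta cell markers (Ins1, Ins2, Iapp, Slc2a2, Mafa, Nkx6-1, Pdx1 and Ucn3), which summed to at least 66654 CPM (counts scaled to library size, with TMM factors). Marker sums of other cells moved with genotype. The 24 acinar markers summed to 2026 CPM on average in WT (949 to 3897), 7462 in hIAPP (2448 to 16221) and 9820 in rIAPP (4160 to 18066). The beta cell sum was 136775 CPM in WT, 102112 in hIAPP and 89719 in rIAPP, the macrophage sum 152, 531 and 102, and the endothelial sum 695, 616 and 869. Mesenchymal markers summed to 885, 1509.8 and 1554 CPM, and lymphocyte markers to 17.6, 20.3 and 6.77 CPM. In bulk samples, fewer cells of a type and less RNA per cell cannot be told apart. The part of these cell types in the histone results was not tested. A fit with the acinar score is given with the results. Every rIAPP library had a higher acinar sum than every WT library, so that fit can hardly tell the score from genotype there. A call lost in rIAPP against WT with the acinar score therefore does not show what part acinar RNA had.

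Both classes of histone mRNA were counted in every library, with summed CPM of similar size. CPM is not corrected for transcript length, so these sums do not compare the amounts of mRNA of the classes. Replication-dependent genes together ran at 627, 717 and 797 CPM (lowest, median and highest of 6 libraries) in WT, 583, 784 and 901 in hIAPP, and 644, 747 and 898 in rIAPP. All 3 ranges overlapped, and the means of 722 ± 66.1 CPM in WT, 759 ± 114 in hIAPP and 742 ± 91.2 in rIAPP (SD, n = 6) differed by less than 1 SD. Replacement genes together ran at 613, 720 and 785 CPM in WT, 505, 652 and 766 in hIAPP, and 598, 655 and 712 in rIAPP, again with overlap between all genotypes. The lowest sum of both classes was that of hIAPP 5 (583 and 505 CPM). H4 made up 34.1% of the replication-dependent sum in WT, 34.0% in hIAPP and 31.4% in rIAPP, while H3 made up 6.98%, 6.69% and 6.95%. The H1 share was 21.1%, 23.7% and 24.3%.

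**Figure D1:**
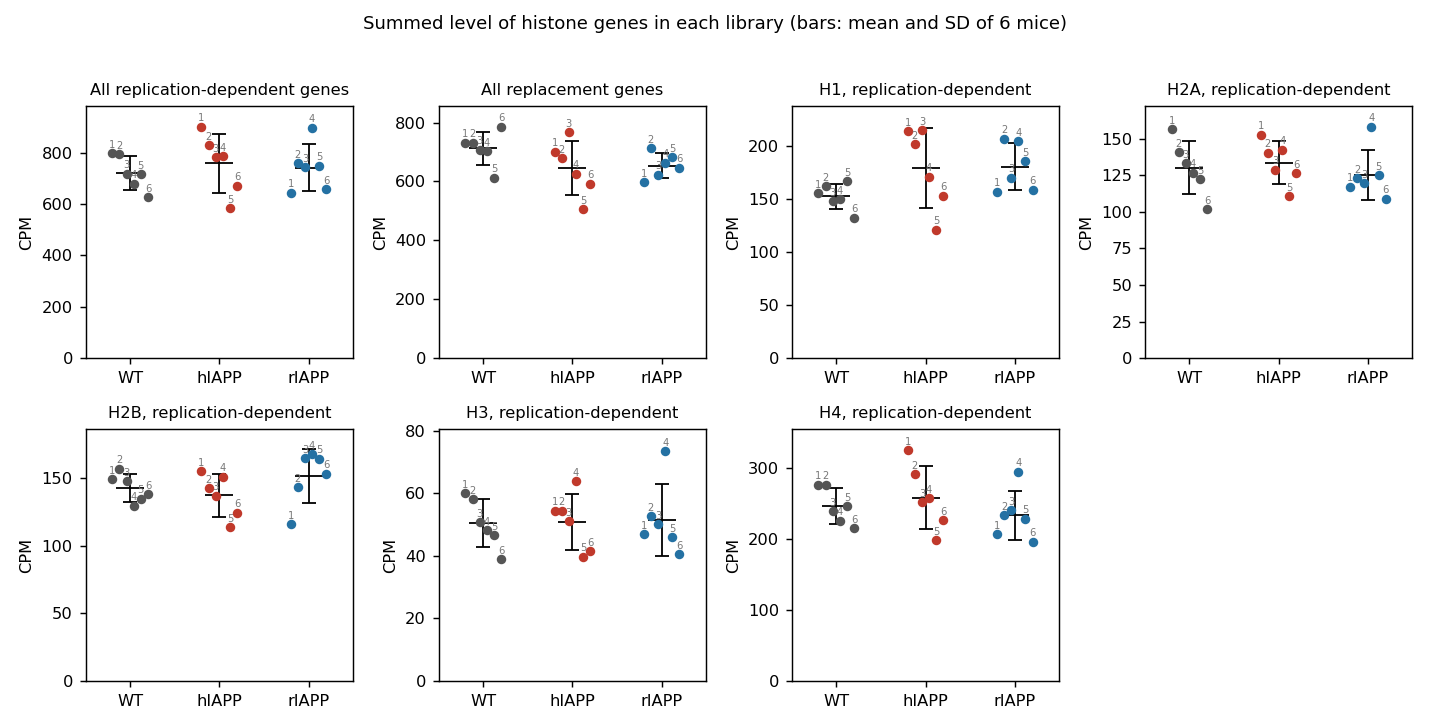
Summed CPM (y axis, from 0) of all replication-dependent and all replacement histone genes and of the replication-dependent genes of each type, by genotype (x axis); each point is 1 library with its number, and the bar is the mean and SD of 6 mice. The genotypes overlap in every panel, hIAPP 5 is lowest in both class sums (583 and 505 CPM), and rIAPP 4 stands above the other rIAPP libraries in H2A (158) and H3 (73.5).

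The class sums rested on few genes. Of the 66 replication-dependent genes, 20 averaged 10 CPM or more over all libraries and 18 averaged under 1 CPM. The highest averages were those of H1f2 (102 CPM) and H2ac19 (79.3 CPM), followed by H2bc4 (61.6), H4c4 (58.9), H1f4 (53.4), H4c8 (38.0), H4c3 (30.0) and H4c18 (24.1). The 22 genes whose model runs 100 bases or more past the stem-loop averaged a sum of 379 CPM in WT, 412 in hIAPP and 410 in rIAPP. The 23 genes whose model ends within 100 bases of it averaged a sum of 204, 210 and 192 CPM. Whether the reads came from mRNA that ends at the stem-loop was not tested. Per kilobase of exon (GENCODE M21), H2ac19 was at 150 CPM per kb, H4c8 at 81.0, H1f2 at 65.7, H4c18 at 56.0, H2bc4 at 53.3 and H4c4 at 51.7. Of the replacement genes, H3f3b (250.4 CPM) and H3f3a (206 CPM), which encode the same H3.3 protein, and H1f0 (138 CPM), the linker histone of resting and differentiated cells, carried most of the sum. H2az1 (40.3 CPM) and H2az2 (24.5 CPM) encode the H2A.Z variants found at promoters, and H2ax (7.16 CPM) the variant that is phosphorylated at DNA breaks. H3c14, H1f7 and the pseudogene H2ac14 had no count in any library. For 56 of the 66 replication-dependent genes the deposited values were not whole numbers in 9 or more libraries, as for 5 of the 12 replacement genes. How fractional values arose is not given, and whether reads were divided between near-identical copies was not tested, so values of single copies are uncertain.

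A filter on low counts kept 61 of 66 replication-dependent genes, 7 of 12 replacement genes and 5 of 9 pseudogene or antisense entries for testing. In rIAPP against WT, 5 replication-dependent genes were lower and 1 was higher of 61 (edgeR quasi-likelihood test, Benjamini-Hochberg adjusted p under 0.05), which is 8.20% lower and 1.64% higher, against 12.6% lower and 14.1% higher of all 20244 genes tested (26.8% either way). In hIAPP against rIAPP, 6 were higher and 2 were lower (9.84% and 3.28%), against 13.5% higher and 14.1% lower of all genes (27.6% either way). In hIAPP against WT, 1 was higher and 0 were lower (2 had an unadjusted p under 0.05, and DESeq2 also called 1), against 8.31% higher and 7.53% lower of all genes (15.8% either way). As a class, replication-dependent genes were therefore called no more often than genes at large in any comparison. Their median log2 fold changes were 0.05 in hIAPP against WT, -0.08 in rIAPP against WT and 0.13 in hIAPP against rIAPP, beside -0.01, -0.01 and 0 over all genes. Scaled by library totals in place of TMM factors, the median of all genes rose by 0.12 on the log2 scale in both comparisons with WT, and rIAPP against WT then gave 6 replication-dependent genes higher and 3 lower. Without rIAPP 4, hIAPP against rIAPP gave 14 calls in place of 8, and without hIAPP 5 and hIAPP 6 together it also gave 14. With hIAPP 4 or hIAPP 5 left out, hIAPP against WT gave 2 calls in place of 1.

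**Figure D2:**
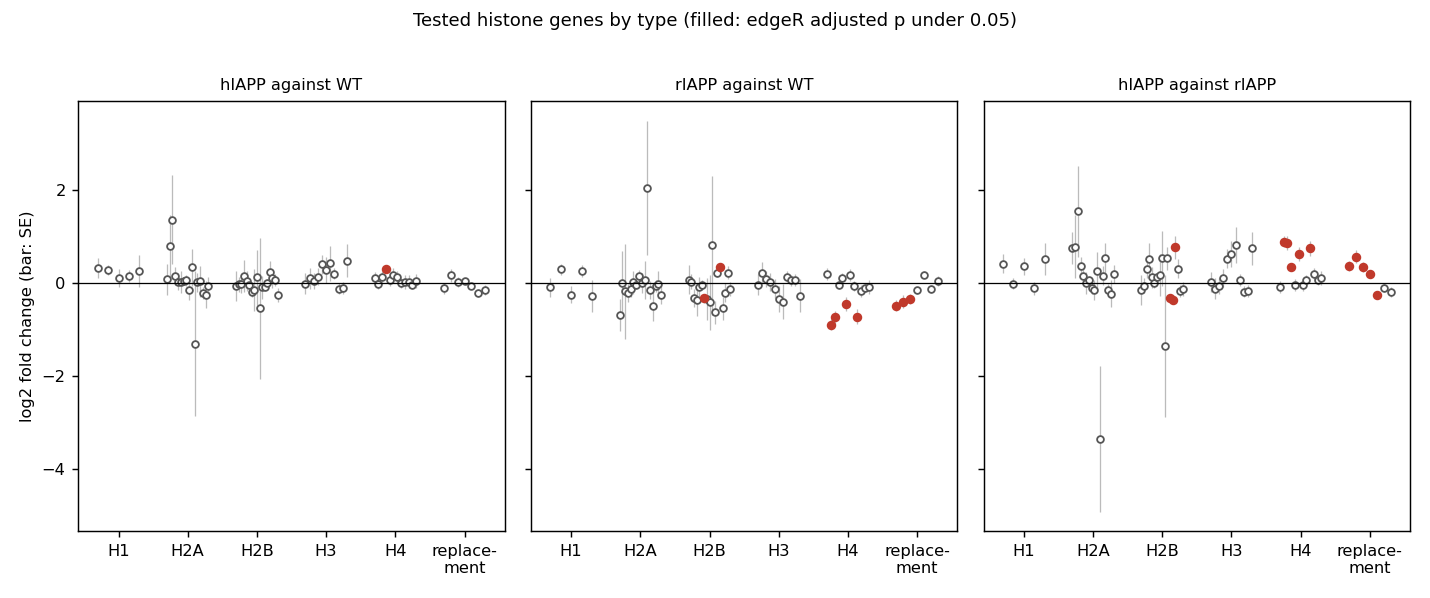
Log2 fold change with its SE (y axis) of each tested replication-dependent gene by type, and of each tested replacement gene (x axis), in 3 comparisons; filled points passed edgeR at an adjusted p under 0.05. Filled points gather in H4 and among replacement genes, from -0.90 to -0.45 for the 4 H4 genes in rIAPP against WT, while the widest bars belong to copies such as H2ac23 and H2bc24.

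Histone H4 held most of the calls. Of 12 H4 genes tested, 4 were lower in rIAPP than in WT (H4c11, H4c12, H4c6 and H4c2), which is 33.3% against 12.6% of all genes. In hIAPP against rIAPP, 5 were higher (these 4 and H4c14), which is 41.7% against 13.5% of all genes. These are counts of few genes and were not tested as a group. The H4 genes encode 1 protein from many copies, so the results are of gene copies whose coding sequences are nearly alike, and the values of all H4 genes but H4c14 and the scarcely counted H4c17 were fractional in all 18 libraries. H4c11 (chr13:21735034-21735456) was at 6.24, 6.94 and 7.43 CPM in WT, 5.32, 7.11 and 8.37 in hIAPP, and 2.83, 3.72 and 4.41 in rIAPP. Every rIAPP library lay below every WT and every hIAPP library, while WT and hIAPP overlapped. The log2 fold change of H4c11 was -0.90 ± 0.12 (SE) in rIAPP against WT (edgeR adjusted p = 7.22e-06) and 0.89 ± 0.12 in hIAPP against rIAPP (edgeR adjusted p = 8.43e-06).

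H4c12 (chr13:21750145-21750553), the gene whose promoter is nearly that of H4c11, was at 9.12, 10.4 and 13.6 CPM in WT, 8.52, 11.9 and 15.5 in hIAPP, and 4.55, 6.79 and 8.47 in rIAPP. Here too the rIAPP libraries lay below all others. Its log2 fold change was -0.74 ± 0.15 in rIAPP against WT (edgeR adjusted p = 6.92e-04) and 0.86 ± 0.15 in hIAPP against rIAPP (edgeR adjusted p = 1.52e-04). H4c6 was at 4.32, 5.19 and 6.67 CPM in WT, 3.89, 5.58 and 6.90 in hIAPP, and 2.60, 3.04 and 4.86 in rIAPP. Only rIAPP 4 (4.86 CPM) reached into the WT range. H4c6 changed by -0.72 ± 0.15 on the log2 scale in rIAPP against WT (edgeR adjusted p = 0.00137) and by 0.75 ± 0.15 in hIAPP against rIAPP (edgeR adjusted p = 9.76e-04). H4c2, which overlaps the antisense gene 4930558J22Rik, was at 4.20, 5.70 and 6.08 CPM in WT, 4.52, 6.26 and 7.38 in hIAPP, and 2.90, 4.02 and 4.86 in rIAPP. Its groups overlapped at the edges, with log2 fold changes of -0.45 ± 0.15 in rIAPP against WT (edgeR adjusted p = 0.0278) and 0.63 ± 0.15 in hIAPP against rIAPP (edgeR adjusted p = 0.00302). The first of these was lost when WT 1, WT 2, WT 3, rIAPP 1 or rIAPP 6 was left out, with edgeR adjusted p between 0.0566 and 0.0672, and with library totals (-0.34, edgeR adjusted p = 0.0802).

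H4c14, the H4 gene of the chromosome 3 cluster, showed another order of the genotypes. It was at 13.9, 16.3 and 18.1 CPM in WT, 18.0, 19.7 and 21.9 in hIAPP, and 14.4, 15.4 and 18.8 in rIAPP. The hIAPP libraries were the highest group with a small overlap, and the WT and rIAPP ranges lay on each other. H4c14 rose by 0.31 ± 0.08 on the log2 scale in hIAPP against WT (edgeR adjusted p = 0.0138) and by 0.34 ± 0.08 in hIAPP against rIAPP (edgeR adjusted p = 0.00336). Without hIAPP 5 and hIAPP 6, its change against WT was 0.28 (edgeR adjusted p = 0.0646). Its values were fractional in 2 libraries only.

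H4c4, H4c8, H4c3, H4c18 and H4c1 did not pass in any comparison. H4c4 was at 55.4, 57.8 and 66.0 CPM in WT, 41.3, 60.7 and 74.0 in hIAPP, and 48.0, 57.0 and 69.9 in rIAPP, with a log2 fold change of -0.06 in rIAPP against WT (95% interval -0.30 to 0.17). For H4c8 that difference was -0.16 (-0.44 to 0.11), for H4c3 0.18 (-0.08 to 0.43), for H4c18 0.10 (-0.15 to 0.36) and for H4c1 0.19 (-0.07 to 0.46). None of these intervals reached the -0.45 of H4c2, but that value is an estimate with its own spread. The intervals therefore do not set these genes apart from the called ones. H4c9 and H4f16 did not pass in any comparison either. The promoter and stem-loop of H4c6 hold the same GGTCCG and GGCCCT letters as those of H4c4. Mean CPM, uncorrected for length, was 4.73 for H4c6, 5.78 for H4c11, 9.80 for H4c12 and 58.9 for H4c4. Their exon lengths were 391, 774, 312 and 1138 bases in that order, so these values do not compare amounts of mRNA between the genes. With the mean log2 level of the acinar markers in the fit, the rIAPP against WT difference was -0.50 for H4c11 (edgeR adjusted p = 0.0431), -0.54 for H4c12 (edgeR adjusted p = 0.181), -0.49 for H4c6 (edgeR adjusted p = 0.26) and 0.0045 for H4c2 (edgeR adjusted p = 0.993), while all 4 stayed higher in hIAPP than in rIAPP, with edgeR adjusted p of 8.12e-06, 6.29e-04, 0.00318 and 0.00809.

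**Figure D3:**
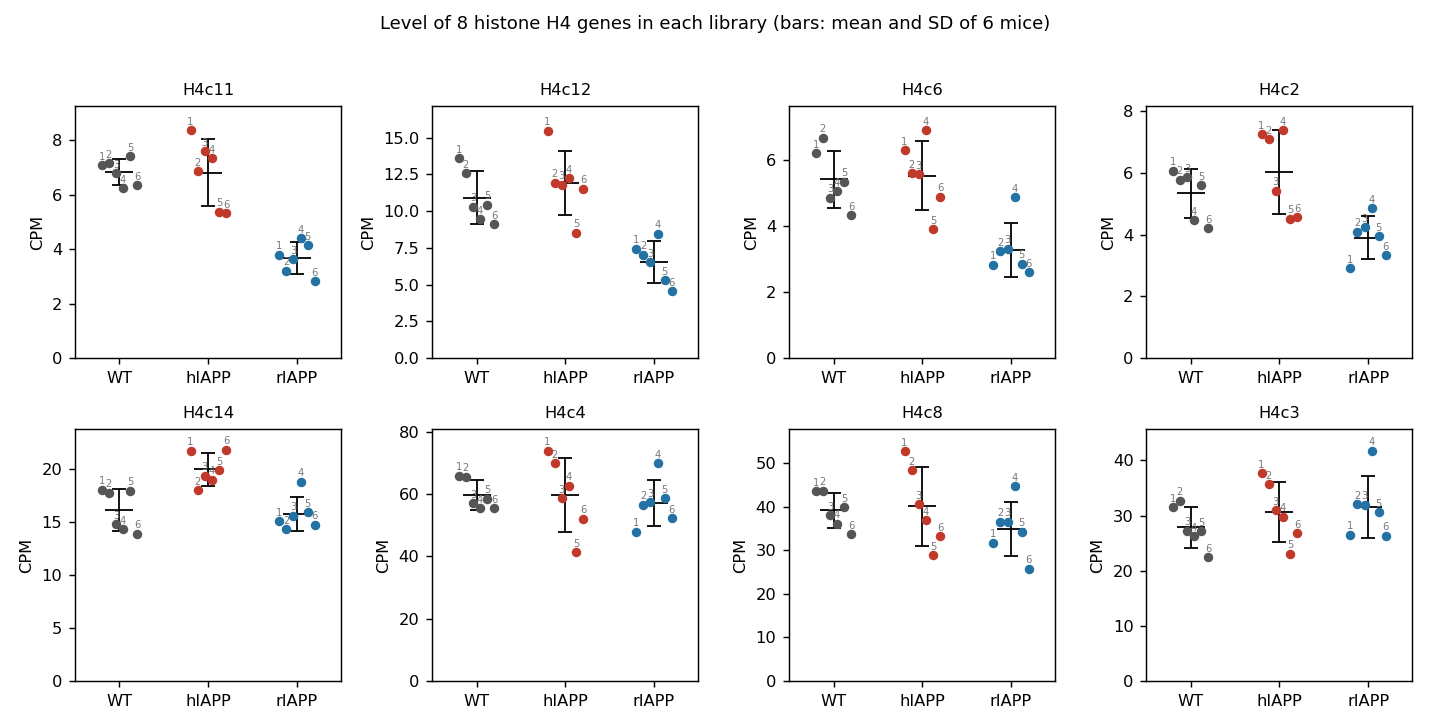
CPM (y axis, from 0) of 8 H4 genes by genotype (x axis), with 1 numbered point per library and the mean and SD of 6 mice. The rIAPP points of H4c11 (2.83 to 4.41) and H4c12 (4.55 to 8.47) lie below all others, H4c6 and H4c2 show the same order with overlap, and H4c4, H4c8 and H4c3 overlap throughout.

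H2B genes moved in both directions. H2bc6 was at 17.1, 19.5 and 21.1 CPM in WT, 15.1, 19.8 and 23.1 in hIAPP, and 18.1, 25.6 and 26.8 in rIAPP. The rIAPP libraries were the highest except rIAPP 1 (18.1 CPM), and the log2 fold change was 0.35 ± 0.10 in rIAPP against WT (edgeR adjusted p = 0.0117) and -0.35 ± 0.10 in hIAPP against rIAPP (edgeR adjusted p = 0.0108). Without hIAPP 5 and hIAPP 6 the latter was -0.24 (edgeR adjusted p = 0.0601). The GENCODE model of H2bc6 is long and overlaps that of H1f4 on the same strand, so reads of the pair may not be told apart. H2bc4, the H2B gene with the highest CPM, was at 56.1, 57.9 and 64.9 CPM in WT, 51.6, 54.1 and 63.5 in hIAPP, and 52.3, 70.7 and 84.0 in rIAPP. Between hIAPP and rIAPP its log2 fold change was -0.32 ± 0.08 (edgeR adjusted p = 0.00776), and its difference of 0.23 ± 0.08 between rIAPP and WT just missed the threshold (edgeR adjusted p = 0.050013). DESeq2 called H2bc4 and also H2bc3 in rIAPP against WT, and with H1f2 it called 9 replication-dependent genes there against the 6 of edgeR.

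H2bc21, in the chromosome 3 cluster, was at 10.6, 11.9 and 13.9 CPM in WT, 8.40, 10.9 and 11.4 in hIAPP, and 7.26, 9.64 and 11.2 in rIAPP. The rIAPP range began lower and overlapped that of WT, and the gene fell by 0.32 on the log2 scale (SE 0.10, edgeR adjusted p = 0.0180), a call that was lost with library totals (-0.20, edgeR adjusted p = 0.0998) and with the acinar score in the fit (-0.09, edgeR adjusted p = 0.778). H2bc7, a gene near 1 CPM, was at 0.508, 0.947 and 1.11 CPM in WT, 0.727, 0.991 and 1.68 in hIAPP, and 0.460, 0.535 and 1.01 in rIAPP. It was higher in hIAPP than in rIAPP by 0.77 ± 0.25 (edgeR adjusted p = 0.0227), with hIAPP 4 and rIAPP 4 the highest of their genotypes. Without hIAPP 4 the difference was 0.58 (edgeR adjusted p = 0.0770), and the call was also lost without rIAPP 2 (edgeR adjusted p = 0.0542) or rIAPP 3 (edgeR adjusted p = 0.0544).

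No gene of the replication-dependent H1, H2A and H3 types passed in any comparison with edgeR, of 5, 16 and 11 tested. At an unadjusted p under 0.05, edgeR gave 1, 0 and 0 of them in hIAPP against WT, 1, 0 and 0 in rIAPP against WT, and 0, 2 and 4 in hIAPP against rIAPP. DESeq2 called H1f2 in rIAPP against WT and H3c15 in hIAPP against rIAPP. H1f2, the replication-dependent linker histone gene with the highest CPM, was at 81.4, 89.9 and 94.0 CPM in WT, 80.0, 108 and 139 in hIAPP, and 93.1, 109.9 and 123 in rIAPP. The transgenic libraries reached well above the WT range and overlapped it at the low end. Its log2 fold change was 0.29 ± 0.11 in hIAPP against WT (edgeR adjusted p = 0.0944) and 0.30 ± 0.11 in rIAPP against WT (edgeR adjusted p = 0.0584). H1f4 was at 39.8, 48.8 and 54.8 CPM in WT, 31.2, 58.3 and 65.1 in hIAPP, and 47.7, 56.3 and 68.8 in rIAPP, with overlap throughout. H2ac19, the H2A gene with the highest level, was at 66.9, 79.1 and 95.1 CPM in WT, 71.8, 82.4 and 89.2 in hIAPP, and 66.7, 75.0 and 92.5 in rIAPP, and its rIAPP against WT difference was -0.04 on the log2 scale (95% interval -0.22 to 0.14).

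Of 7 replacement genes tested, 3 were lower and 0 were higher in rIAPP than in WT (42.9%), 4 were higher and 1 was lower in hIAPP than in rIAPP (71.4%), and 0 were called in hIAPP against WT (1 at an unadjusted p under 0.05, and DESeq2 called 1, H3f3a). Of all genes, 12.6% were lower and 14.1% higher in rIAPP than in WT. In hIAPP against rIAPP, 13.5% of all genes were higher and 14.1% lower (27.6% either way), and in hIAPP against WT 15.8% were called. The counts of replacement genes rest on few genes and were not tested as a group. Without WT 2, the first count was 1 in place of 3, and without hIAPP 2 or hIAPP 3 the second was 3 in place of 5. With library totals, rIAPP against WT gave 1 higher and 1 lower. Without WT 5, hIAPP against WT gave 1 call.

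H1f0 lay at 134, 157 and 169.8 CPM in WT, 90.5, 153 and 186 in hIAPP, and 100.9, 111 and 126 in rIAPP. Every rIAPP library was below every WT library, while hIAPP spanned both, with hIAPP 5 at 90.5 CPM the lowest of all. H1f0 changed by -0.48 ± 0.12 in rIAPP against WT (edgeR adjusted p = 0.00408) and by 0.37 ± 0.12 in hIAPP against rIAPP (edgeR adjusted p = 0.0229). With the acinar score in the fit, the first was -0.36 (edgeR adjusted p = 0.273). Without hIAPP 3, the second was 0.29 (edgeR adjusted p = 0.0666), and it was also lost with the acinar score (0.34, edgeR adjusted p = 0.0540) and without hIAPP 1 (edgeR adjusted p = 0.0510) or hIAPP 2 (edgeR adjusted p = 0.0503). H1f0 overlaps the antisense gene Gm49544. H1f10, another linker histone of the replacement class, was at 3.04, 3.60 and 4.27 CPM in WT, 3.19, 4.16 and 4.69 in hIAPP, and 1.76, 2.71 and 3.63 in rIAPP. Its groups overlapped, and the log2 fold change was -0.40 ± 0.14 in rIAPP against WT (edgeR adjusted p = 0.0364), and 0.57 ± 0.14 in hIAPP against rIAPP (edgeR adjusted p = 0.00392). The H1f10 change against WT was -0.12 with the acinar score in the fit (edgeR adjusted p = 0.802) and -0.28 with library totals (edgeR adjusted p = 0.148). The call was also lost in the fit of only WT and rIAPP (edgeR adjusted p = 0.0519), with no filter on low counts (edgeR adjusted p = 0.0557), and without WT 2, 3, 4 or 5 or rIAPP 1, 2, 4 or 6, with edgeR adjusted p between 0.0507 and 0.0902. H1f10 overlaps the antisense gene Gm5577.

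Of the H2A variants, H2ax was at 6.86, 7.42 and 9.39 CPM in WT, 7.11, 7.91 and 8.31 in hIAPP, and 4.35, 6.04 and 7.76 in rIAPP. The rIAPP libraries were the lowest group, with rIAPP 4 (7.76 CPM) inside the other ranges. H2ax fell by 0.34 on the log2 scale in rIAPP against WT (SE 0.11, edgeR adjusted p = 0.0213), a call that was lost without WT 2 (edgeR adjusted p = 0.0647), with library totals (-0.22, edgeR adjusted p = 0.141) and with the acinar score (-0.36, edgeR adjusted p = 0.234), and was higher by 0.36 ± 0.11 in hIAPP against rIAPP (edgeR adjusted p = 0.0151). The genes of H2A.Z went opposite ways. H2az1 was at 38.6, 41.3 and 44.6 CPM in WT, 38.1, 43.2 and 46.4 in hIAPP, and 34.0, 35.1 and 45.9 in rIAPP, where all but rIAPP 4 were under 39 CPM. H2az2 was at 22.3, 23.3 and 27.3 CPM in WT, 20.3, 23.4 and 24.6 in hIAPP, and 23.99, 27.0 and 30.9 in rIAPP. In hIAPP against rIAPP, H2az1 was higher by 0.20 ± 0.07 (edgeR adjusted p = 0.0314) and H2az2 was lower, at -0.25 ± 0.07 (edgeR adjusted p = 0.0108). The H2az1 call was lost in 9 of 28 alternative runs, among them those without hIAPP 2, 3 or 4 or rIAPP 1, 2, 3 or 5, with edgeR adjusted p between 0.0563 and 0.0804 for these, and those with no filter on low counts (edgeR adjusted p = 0.0560) and of only hIAPP and rIAPP (edgeR adjusted p = 0.050026).

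H3f3a was at 198, 222 and 248.8 CPM in WT, 154, 203 and 212 in hIAPP, and 174, 206 and 229 in rIAPP. H3f3b was at 209, 259 and 301 CPM in WT, 177, 234 and 287 in hIAPP, and 231, 258 and 318 in rIAPP. The genotypes overlapped for both H3.3 genes. For H3f3a the log2 fold change in hIAPP against WT was -0.22 ± 0.08 (edgeR adjusted p = 0.0825), and for H3f3b it was -0.15 ± 0.11 (edgeR adjusted p = 0.391). H3f3a overlaps its antisense gene H3f3aos, which averaged 2.34 CPM in WT, 1.92 in hIAPP and 1.86 in rIAPP and did not pass in any comparison.

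**Figure D4:**
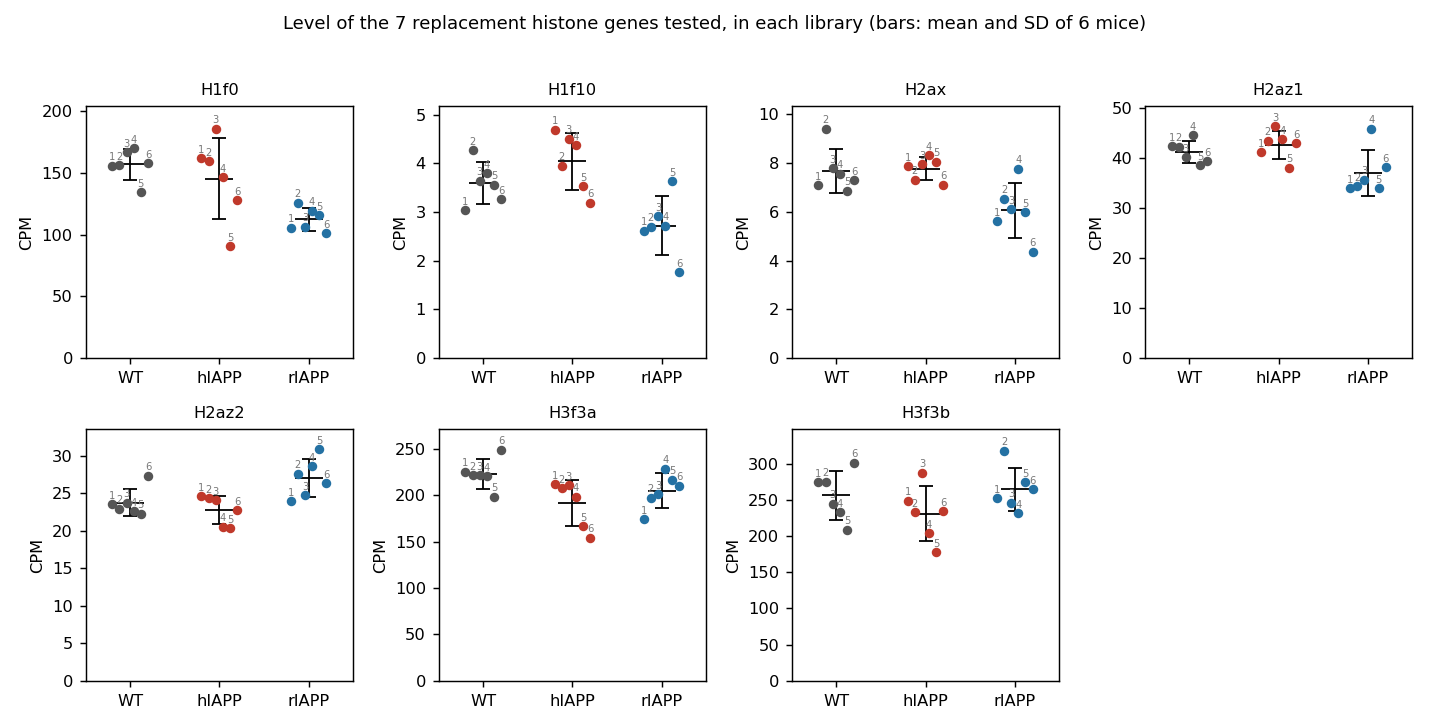
CPM (y axis, from 0) of the 7 tested replacement genes by genotype (x axis), with 1 numbered point per library and the mean and SD of 6 mice. The rIAPP points of H1f0 (100.9 to 126) lie below all WT points, rIAPP 4 stands above the other rIAPP libraries for H2az1 (45.9), and H2az2 shows higher rIAPP values (23.99 to 30.9).

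Histone variants whose present symbols fall outside the prefixes were looked at beside the members. Macroh2a1, which encodes the large H2A variant macroH2A1, was at 101.5, 104 and 112 CPM in WT, 82.0, 89.9 and 95.7 in hIAPP, and 70.4, 76.2 and 82.6 in rIAPP. Both transgenic groups lay wholly below WT, with a touching overlap between them. Macroh2a1 changed by -0.24 ± 0.05 in hIAPP against WT (edgeR adjusted p = 0.00523), by -0.46 ± 0.05 in rIAPP against WT (edgeR adjusted p = 1.66e-06) and by 0.22 ± 0.05 in hIAPP against rIAPP (edgeR adjusted p = 0.00374). With library totals the first was -0.13 (edgeR adjusted p = 0.0894), and with the acinar score in the fit it was -0.16 (edgeR adjusted p = 0.247). Macroh2a2, its paralogue, was at 19.8, 25.6 and 29.3 CPM in WT, 15.5, 21.5 and 23.1 in hIAPP, and 17.8, 19.3 and 20.5 in rIAPP, and changed by -0.31 ± 0.09 and -0.40 ± 0.09 against WT (edgeR adjusted p = 0.0263 and 0.00263). The first was lost without WT 1, 3 or 6 or hIAPP 5 or 6, with edgeR adjusted p between 0.0526 and 0.0712. It was -0.19 without hIAPP 5 and hIAPP 6 together (edgeR adjusted p = 0.151), -0.22 with the acinar score (edgeR adjusted p = 0.395) and -0.20 with library totals (edgeR adjusted p = 0.107), and it was also lost in the fit of only those genotypes (edgeR adjusted p = 0.0576). The Macroh2a2 change in rIAPP against WT was -0.27 with the acinar score (edgeR adjusted p = 0.299). H2aj did not pass in any comparison, at 19.2 CPM in WT, 19.8 in hIAPP and 17.4 in rIAPP on average. Among pseudogene entries, H2ac5-ps and H2bu1-ps were called higher in hIAPP than in rIAPP, at 0.127 against 0.0394 CPM and 0.198 against 0.0945 CPM on average, with overlapping groups (log2 fold changes of 1.67 ± 0.62 and 1.06 ± 0.35, edgeR adjusted p = 0.0493 and 0.0270). H2af-ps2 (formerly Hist1h2al) stood out for its level, 15.1 CPM on average over all libraries.

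Some genes of the same histone type, singled out after their values were seen, traded high and low values between libraries. How alike their sequences are was not measured, and H2bc24 matched no RefSeq or GENCODE gene. H2bc24 was at 1.76 to 4.48 CPM in 6 libraries (WT 2, WT 4, hIAPP 4, rIAPP 1, rIAPP 3 and rIAPP 4) and at 0.145 CPM or less in the other 12. H2bc23 was at 0.244 to 0.608 CPM in those 6 libraries and at 1.67 to 3.80 CPM in the other 12. Their sum was 2.83 ± 0.755 CPM in WT, 2.72 ± 0.722 in hIAPP and 3.02 ± 0.9605 in rIAPP (SD, n = 6). H2ac23 was at 0 in 11 libraries and reached 3.11 CPM in rIAPP 2, while H2ac23 and H2ac24 together were at 12.3 ± 3.61, 12.3 ± 2.14 and 11.8 ± 2.72 CPM. The log2 fold changes of H2bc24 and H2ac23 therefore had SEs of at least 1.45 in each comparison, and none passed.

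Libraries within a genotype differed in a coordinated way. Of the 61 tested replication-dependent genes, 48 were highest in rIAPP 4 among the rIAPP libraries (78.7%, against 4261 of all 20244 tested genes), 31 were highest in hIAPP 4 (50.8%, against 15.0%) and 22 in hIAPP 1 (36.1%, against 17.4%). Among WT libraries, 30 were highest in WT 2 and 20 in WT 1 (49.2% and 32.8%, against 12.7% and 12.2%), and 41 were lowest in WT 6 (67.2%, against 21.8%). In hIAPP, 33 were lowest in hIAPP 5 (54.1%, against 21.6%). Of the 32 genes of S phase and cell division, 23 were highest in hIAPP 4 (71.9%), 16 in rIAPP 4 and 12 in WT 2 (37.5%), but only 4 in WT 1 and 4 in hIAPP 1. In WT and hIAPP, the division genes were most often lowest in other libraries than the histone genes. In WT 5, 14 were lowest (43.8%, against 26.1% of all tested genes), and in hIAPP 6, 18 were (56.2%, against 19.2%). WT 6 was lowest for 9 (28.1%, against 21.8%) and hIAPP 5 for 6 (18.8%, against 21.6%). In rIAPP, both sets were most often lowest in rIAPP 1. It was lowest for 25 of the 61 histone genes (41.0%) and 17 of the 32 division genes (53.1%), against 25.4% of all tested genes. These counts describe single libraries and have no test.

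Some genes of low level illustrate these libraries. H3c2, H2ac10, H2bc14 and H1f5, chosen after their values were seen, were at 6.48, 3.81, 2.03 and 2.09 CPM in hIAPP 4, against at most 4.09, 1.86, 1.08 and 1.13 CPM in the other hIAPP libraries. Of the division genes, likewise singled out afterwards, Mki67, the marker of dividing cells, was at 41.0 CPM in hIAPP 4 and 11.2 to 25.7 in the other hIAPP libraries, and Top2a, a topoisomerase of dividing cells, at 32.2 against 8.04 to 20.1. In rIAPP 4, H3c2 was at 3.80 CPM, H2ac10 at 1.83, H2bc14 at 1.34 and H1f5 at 1.51, each the highest of its genotype, while Mki67 (19.8 CPM) was second to rIAPP 3 (21.2 CPM). Among abundant genes, H4c4 (69.9 CPM), H4c8 (44.6), H4c3 (41.7) and H4c18 (32.5) were also highest in rIAPP 4 of the rIAPP libraries. In hIAPP, H1f2 was highest in hIAPP 3 (139 CPM) and H4c4 in hIAPP 1 (74.0 CPM), with 92.3 and 62.7 CPM in hIAPP 4.

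**Figure D5:**
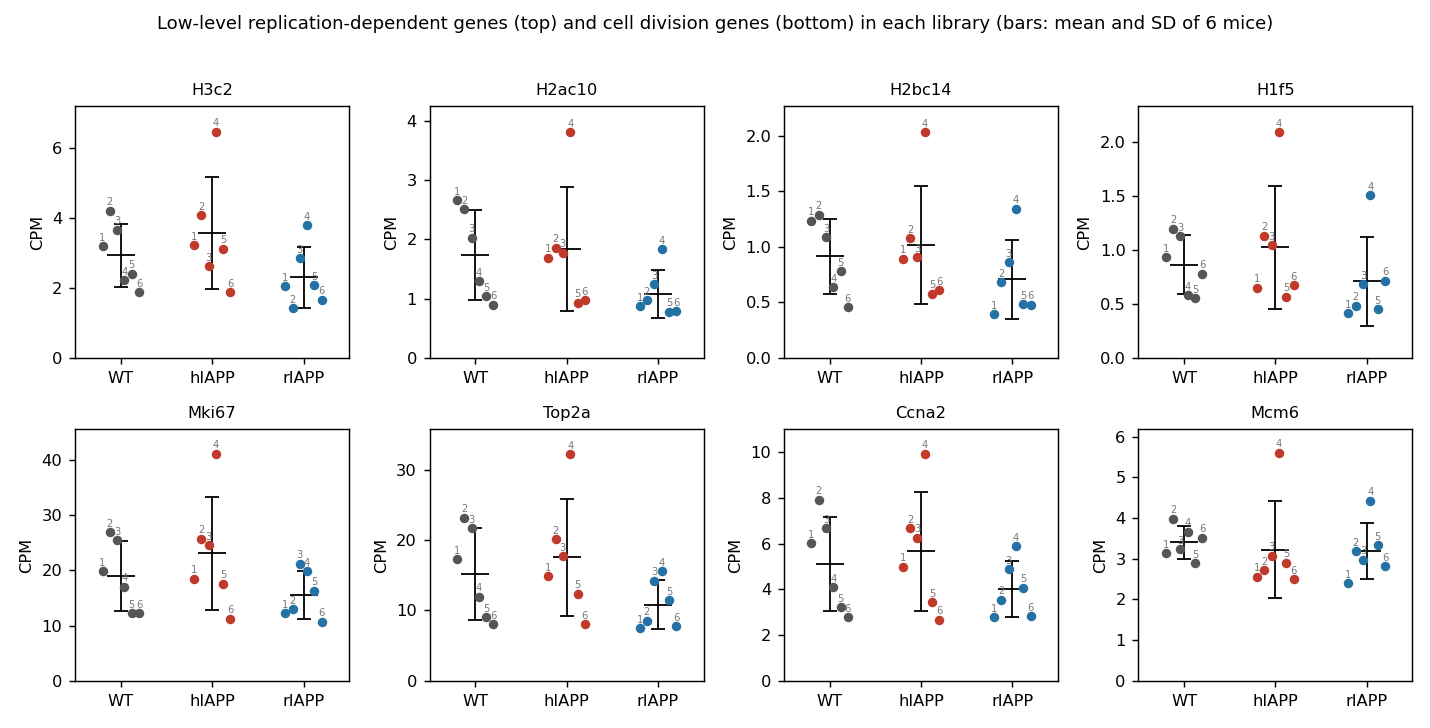
CPM (y axis, from 0) of 4 low-level replication-dependent genes (top row) and 4 genes of cell division and DNA replication (bottom row) by genotype (x axis), with 1 numbered point per library and the mean and SD of 6 mice. Library hIAPP 4 is the highest point in all 8 panels (6.48 CPM for H3c2 and 41.0 for Mki67).

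Genes of the machinery that makes histone mRNA were mostly lower where they were called. Of 19 tested genes of histone mRNA 3′ end processing and transcription, 0 were higher and 5 lower in hIAPP against WT (26.3%). In rIAPP against WT, 1 was higher and 5 lower (31.6%), and in hIAPP against rIAPP, 1 was higher and 2 lower (15.8%). Of all genes, 15.8%, 26.8% and 27.6% were called either way. Called lower were 26.3%, 26.3% and 10.5% of the list, beside 7.53%, 12.6% and 14.1% of all genes. These are counts of few genes. Alternative runs were read for single histone genes only, not for single genes of this list or of the lists below. Npat, the coactivator of histone gene transcription, was at 38.9, 43.4 and 49.7 CPM in WT, 31.5, 37.0 and 39.1 in hIAPP, and 33.7, 39.5 and 41.1 in rIAPP, and changed by -0.27 ± 0.06 and -0.18 ± 0.06 against WT (edgeR adjusted p = 0.00741 and 0.0466). Slbp, which binds the stem-loop, was at 17.6, 19.5 and 19.9 CPM in WT and 15.5, 17.0 and 18.3 in rIAPP, and fell by 0.18 on the log2 scale (SE 0.06, edgeR adjusted p = 0.0238). Lsm11, a subunit of the U7 particle that guides the cut after the stem-loop, was higher in rIAPP than in WT by 0.33 ± 0.10 (edgeR adjusted p = 0.0153). The U7 RNA gene Rnu7 had no counts in any library.

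Of 27 histone chaperones and supply factors, 6 were lower in hIAPP than in WT and 6 in rIAPP than in WT, with 0 higher (22.2% in each), and 3 were higher in hIAPP than in rIAPP (11.1%). Of all genes, 7.53% and 12.6% were lower in the comparisons with WT, and 13.5% were higher in hIAPP than in rIAPP. Either way, 15.8%, 26.8% and 27.6% of all genes were called. Rbbp7, which binds H4 as a subunit of the Hat1 acetyltransferase and of other chromatin complexes, changed by -0.25 ± 0.06 in hIAPP against WT (edgeR adjusted p = 0.0126) and by -0.55 ± 0.06 in rIAPP against WT (edgeR adjusted p = 1.68e-06). Supt16, a subunit of the FACT chaperone of H2A and H2B, changed by -0.30 ± 0.06 and -0.24 ± 0.06 (edgeR adjusted p = 0.00228 and 0.00575). Of the 32 genes of S phase and cell division, 3 were higher and 1 lower in hIAPP against WT (12.5%), 3 were higher and 3 lower in rIAPP against WT (18.8%), and 4 were higher and 2 lower in hIAPP against rIAPP (18.8%). Each of these shares was below that of all genes called either way (15.8%, 26.8% and 27.6%). Mcm2, a subunit of the replicative helicase that also binds H3 and H4, was higher in rIAPP than in WT by 0.41 ± 0.11 (edgeR adjusted p = 0.00805), and Ccnd2, the main D-type cyclin of beta cells, was lower, at 443 against 764 CPM on average and a log2 fold change of -0.78 ± 0.09 (edgeR adjusted p = 8.82e-07). Mki67 did not pass in any comparison, with log2 fold changes of 0.29 ± 0.26 in hIAPP against WT (edgeR adjusted p = 0.528) and -0.29 ± 0.26 in rIAPP against WT (edgeR adjusted p = 0.479).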

How the data were processed

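RNA from islets of 18 mice (165 ± 6 islets per mouse, RIN 8.4 to 9.5) was depleted of ribosomal RNA with Ribo-Zero and prepared with TruSeq, per the labels. The deposited values are estimated counts per gene symbol, not normalised. The submitters' processing notes list the tools HTSeq and STAR and the builds mm10 and GRCm38, with no version. Annotation, strand setting and the origin of fractional values: not given in the sources used here. Of the values above 0, 39.2% were not whole, and all were rounded to whole numbers for testing.

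Counts of all 18 libraries were fitted with edgeR 4.0.16 in R 4.3.3 (TMM factors, filterByExpr by genotype, quasi-likelihood tests, two-sided). P values were adjusted by Benjamini-Hochberg over 20244 genes, and a gene was called under 0.05. Levels are CPM of unrounded values. The labels do not tie mice to litters or dates. Replicate numbers follow the order of the labels and pair nothing. Classes were read through older symbols (RefSeq, GENCODE M21), since present symbols alone would put H1f1 to H1f6 among replacement genes. Of 87 members, 84 matched RefSeq, 84 GENCODE and 70 a promoter. Named genes were the members called, the 8 of each class with the highest mean CPM, fixed variants, and up to 4 called genes of each related list. The members, lists and tests were chosen with earlier results of these data known. Alternatives were DESeq2 1.42.0, other scaling and filters, fits of 2 genotypes, removal of the 10 most abundant genes, the acinar score as a covariate, an adjusted p under 0.01, members with whole values, and each library left out. Unrounded values, the class by present symbol, and leaving out hIAPP 5 and hIAPP 6 were added after the data were seen. The pipeline was tested on simulated data. Plots used matplotlib 3.10.9 (Python 3.11.15).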

Additional observations from a re-analysis of the deposited data

Results flagged for a closer look

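In 105 sets of 6 libraries (named genes and histone sums in each genotype), 13 had 1 library whose gap to its nearest neighbour took an unusually large part of the range. Chance flags about 1 in 20 independent groups. These sets share the same libraries, and the sums contain named genes, so the number flagged cannot be read against that rate. Library rIAPP 4 was the high one in 7 of them: H4c14 (gap 0.643 of the range, 18.8 CPM against 14.4 to 15.96 in the other rIAPP libraries), H4c6 (0.686, 4.86 CPM against 2.60 to 3.31), H2bc7 (0.741, 1.01 CPM against 0.460 to 0.602), H2az1 (0.649, 45.9 CPM against 34.0 to 38.2), H4c3 (0.629, 41.7 CPM against 26.3 to 32.0), the sum of replication-dependent H2A genes (0.670, 158 CPM against 109.0 to 125) and that of H3 genes (0.636, 73.5 CPM against 40.5 to 52.5). It also had the highest total of the rIAPP libraries, at 157.5 M. H2bc6 was low in rIAPP 1 (0.747, 18.1 CPM against 24.6 to 26.8). H2bc7 was high in hIAPP 4 (0.666, 1.68 CPM against 0.727 to 1.05). In WT, H2ax was high in WT 2 (0.634, 9.39 CPM against 6.86 to 7.79) and H2az2 in WT 6 (0.703, 27.3 CPM against 22.3 to 23.8). H1f9, a testis linker histone that was hardly counted, was at 0.0412 CPM in hIAPP 6 (0.650) and at 0.0147 CPM in rIAPP 5, the only rIAPP library with a count (1 of the range).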

How the results depend on the processing

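For the replication-dependent genes, hIAPP against WT gave 1 call, and 2 with library totals, 2 with the acinar score, 3 without hIAPP 5 and hIAPP 6 and 0 at an adjusted p under 0.01; rIAPP against WT gave 6, and 3 under 0.01 and 1 among members with whole values; hIAPP against rIAPP gave 8, and 14 without hIAPP 5 and hIAPP 6 and 1 among members with whole values. For the replacement genes, hIAPP against WT gave 0, and 1 with DESeq2; rIAPP against WT gave 3, and 0 with the acinar score, 1 under 0.01 and 1 with whole values; hIAPP against rIAPP gave 5, and 1 under 0.01 and 2 with whole values. The whole-value counts rest on fewer genes by construction; for the others the cause was not tested. Leaving out each library gave 1 to 2, 5 to 9 and 7 to 14 calls for the replication-dependent genes and 0 to 1, 1 to 4 and 3 to 5 for the replacement genes, in the same order. H4c2 in rIAPP against WT turned from -0.45 to 0.0045 with the acinar score in the fit (edgeR adjusted p = 0.993). In that comparison the acinar score can hardly be told from genotype, because the acinar sums of WT and rIAPP did not overlap. H4c11 kept its direction and its call in each of the 28 runs of both comparisons with rIAPP, as did H2bc6 in rIAPP against WT. These 28 runs do not include the threshold of 0.01, which H2bc6 did not meet in that comparison. They also leave out the count among members with whole values. Both genes had fractional values in every library and so drop out of that count. No paired analysis was possible because replicate numbers only follow the order of the labels. Genes under 1 CPM and near-identical copies are the least certain.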
